A study of Mus musculus with 5 samples.

Results

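The genes described here are 10 genes of T cells and cytotoxic lymphocytes, namely Cd3d, Cd3e, Cd3g, Cd4, Cd8a, Foxp3, Gzma, Gzmb, Nkg7 and Prf1. They were taken by symbol, after the Ensembl identifiers of the count table had been mapped to symbols, and make up 10 of its 56941 identifiers. RNA was measured in the iridocorneal angle, the ring of drainage tissue between iris and cornea, in 3 pools from DBA/2J mice and 2 pools from DBA/2J-Gpnmb+/SjJ mice (Gpnmb+). DBA/2J mice carry a premature stop in Gpnmb together with the b allele of Tyrp1 and develop pigment dispersion and glaucoma, while Gpnmb+ mice have a functional Gpnmb allele and keep the b allele of Tyrp1. The study describes the animals of both strains as 12 months old, male and female, and lists no treatment. Each pool is described as 3 mice, but the library names hold 3 animal tags for DBA/2J pools and 2 for Gpnmb+ pools. The pools are of separate mice. The p-values set the genotype difference against the spread between pools, which is estimated with information shared across genes. Values for single pools are given in the order of the pool numbers throughout, 1 to 3 for DBA/2J and 1 to 2 for Gpnmb+.

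T cells recognize antigen through a receptor made of alpha and beta or gamma and delta chains, which signals through the CD3 chains. The coreceptors CD4 and CD8 divide most alpha-beta T cells into helper and killer classes, and FOXP3 is the transcription factor of regulatory T cells. Killer T cells and natural killer cells store granzymes and perforin in granules. Perforin opens the membrane of a target cell and granzymes enter through it. In an eye, such cells are usually sparse and sit among larger populations of resident macrophages.

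Total counts on genes ran from 43900661 to 49837758 per pool, so that 1 CPM (the counts-per-million unit, scaled by edgeR's TMM method) stood for 42.9 to 50.7 counts. Gpnmb, the gene that differs by design, had 2042, 2234 and 1946 counts across the DBA/2J pools, against 129659 and 110568 in Gpnmb+. The tissue was checked against 8 trabecular meshwork markers, of which the sparsest, Cnmd, still had at least 103 counts in every pool, and 7 had a log2 fold change below 0. Sex-linked RNA did not match a mix of both sexes in every pool. Ddx3y, a Y-linked gene, had 3608, 4168 and 1567 counts across the DBA/2J pools but 0 and 4 in Gpnmb+ pools 1 and 2. Xist, an X-linked RNA of female cells, had 596, 0 and 2417 counts across the DBA/2J pools, against 7843 and 9152 in Gpnmb+. The sex make-up thus also differed among the DBA/2J pools, and pool 2 had no Xist counts. Genotype and sex cannot be told apart in the comparisons that follow. In whole tissue, fewer cells of a type and less RNA per cell cannot be told apart either.

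All 10 genes passed the count minimum of 10 counts in at least 1 pool and were tested among 19713 genes, and in level per kilobase of exon all but Cd4 lay at or below percentile 40.9 of those genes. Together they gathered 1194, 1831 and 1160 counts across the DBA/2J pools, against 1145 and 1615 in Gpnmb+. Without Cd4 these sums were 481, 681 and 510 against 597 and 533, which overlapped between the genotypes. Per length of exon, the highest was Cd4, at a mean over the 5 pools of 4.02 CPM per kilobase, which placed it at percentile 62.2 of the tested genes. Cd3g followed at 1.38 and Gzma at 0.925 CPM per kilobase. Below them lay Cd3e at 0.545, Cd3d at 0.455, Nkg7 at 0.419 and Gzmb at 0.310 CPM per kilobase. Prf1 at 0.190, Cd8a at 0.182 and Foxp3 at 0.176 CPM per kilobase closed the order, with Foxp3 at percentile 15.0. Only the step from Cd4 to Cd3g exceeded the spread over pools, with the lowest pool of Cd4 at 2.40 CPM per kilobase and the highest of Cd3g at 1.96. Every other pair of neighbors in the order overlapped.

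**Figure D1:**
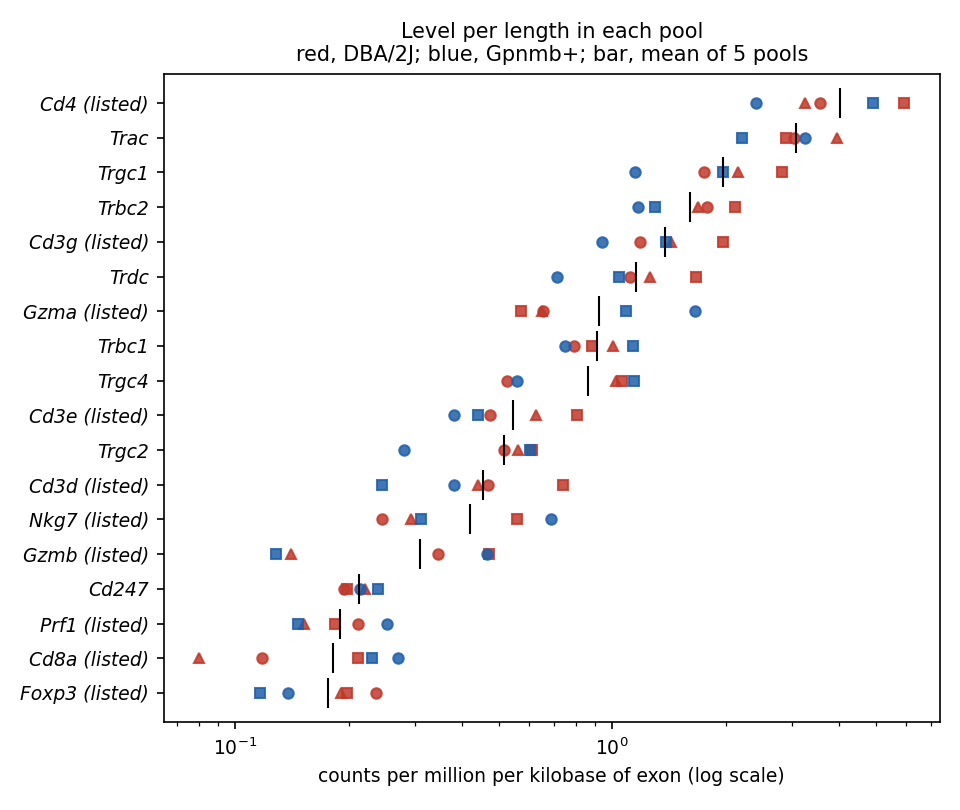
CPM per kilobase of exon (log scale) of the 10 listed genes and 8 T cell receptor chains; points are pools, colored by genotype and shaped by pool number, and the black bar is the mean of the 5 pools. Cd4 lies highest at 4.02 and Foxp3 lowest at 0.176, and among the 10 genes only Cd4 is clear of its neighbor.

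None of the 10 genes passed edgeR's quasi-likelihood test, for which a call needed an adjusted p (Benjamini-Hochberg) no higher than 0.05 and a fold of 1.5 or more. Over all tested genes this called 0.796%, 0.502% as higher and 0.294% as lower in DBA/2J. At an unadjusted p of at most 0.05 and the same fold, 2 of the 10 passed, Foxp3 higher and Gzma lower in DBA/2J, against 8.67% of all genes (4.20% higher and 4.48% lower). DESeq2 called 1 of the 10, Gzma, which was lower, against 4.70% of all genes, 1.94% being called lower, and limma-voom called 0. Log2 fold changes are given as DBA/2J minus Gpnmb+. By sign alone 6 of the 10 were higher and 4 lower in DBA/2J, and their median log2 fold change was 0.15, beside 47.4% higher and a median of -0.02 over all tested genes. For 3 genes (Cd3d, Cd3e and Foxp3) every DBA/2J pool was above both Gpnmb+ pools, against 17.3% of all genes, and for Cd8a and Gzma every DBA/2J pool was below both, against 17.2%.

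**Figure D2:**
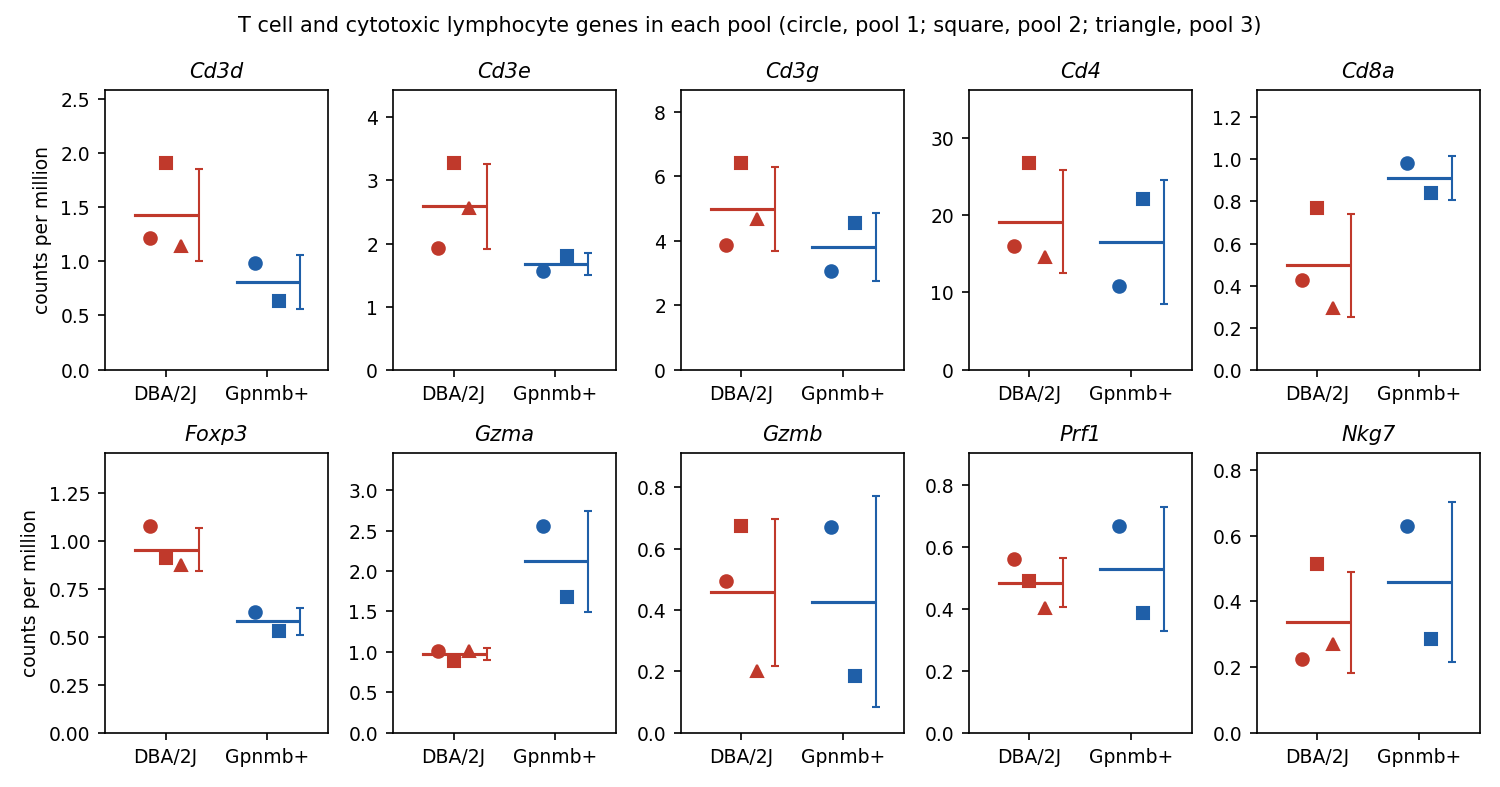
CPM of each of the 10 genes in every pool (linear axes from 0, a scale for each gene); horizontal lines are group means and error bars are ± SD over 3 DBA/2J and 2 Gpnmb+ pools. The DBA/2J pools lie above both Gpnmb+ pools for Cd3d, Cd3e and Foxp3 and below both for Cd8a and Gzma, and overlap them for the other genes.

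The CD3 chains, which carry the signal of the T cell receptor into the cell, had higher mean levels in DBA/2J, but none of the 3 passed the test. Cd3g, on the minus strand of chromosome 9 (GRCm39, as for all positions given, 44880870 to 44891735), and Cd3d, on the plus strand (44893083 to 44899173), lie head to head with their 5′ ends 1348 bases apart, and Cd3e (44910037 to 44920925, minus strand) lies beside them. Cd3d had 54, 82 and 51 counts across the DBA/2J pools, against 50 and 31 in Gpnmb+, or 1.42 ± 0.424 CPM (SD, n = 3) against 0.810 ± 0.249 CPM (n = 2). DBA/2J pool 2 was the highest and the groups did not overlap after scaling, but DBA/2J pool 3 and Gpnmb+ pool 1 differed by a single read. Cd3e had 86, 141 and 114 counts across the DBA/2J pools, against 79 and 88 in Gpnmb+. Again pool 2 led the DBA/2J pools, and the CPM values, 2.59 ± 0.676 (SD, n = 3) against 1.68 ± 0.171 (n = 2), were separated between the genotypes. Cd3g had 172, 276 and 209 counts across the DBA/2J pools, against 156 and 223 in Gpnmb+. Here Gpnmb+ pool 2 fell inside the DBA/2J range.

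The log2 fold change was 0.81 (SE 0.367) for Cd3d, 0.63 (SE 0.289) for Cd3e and 0.39 (SE 0.290) for Cd3g. None reached the threshold in edgeR, where the Benjamini-Hochberg adjusted p-values were 0.355, 0.362 and 0.569. The 95% interval for Cd3d ran from -0.09 to 1.70 on the log2 scale, which takes in 0. Summed over the 3 chains, the level was 7.02, 11.6 and 8.38 CPM across the DBA/2J pools, against 5.62 and 6.99 in Gpnmb+. DBA/2J pool 1 and Gpnmb+ pool 2 were thus nearly equal. The ratio of Cd3g to Cd3e per kilobase was 2.49, 2.44 and 2.28 across the DBA/2J pools, against 2.46 and 3.16 in Gpnmb+. The ratio of Cd3g to Cd3d was 2.52, 2.66 and 3.24 in DBA/2J against 2.47 and 5.68 in Gpnmb+, the last value resting on the 31 Cd3d counts of pool 2.

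Dendritic cell markers were on the same side as the CD3 chains. The summed level of 8 such genes was 118, 148 and 112 CPM across the DBA/2J pools, against 73.2 and 102 in Gpnmb+. All 8 had a log2 fold change above 0, 6 of them with separated pools, where 17.3% of all tested genes were separated in this direction. EdgeR called 0, against 1 at an unadjusted p of at most 0.05 (4.20% of all genes) and 1 by DESeq2 (4.70% in either direction). Both times the gene was Ccr7, with 280, 92 and 98 counts across the DBA/2J pools, against 30 and 38 in Gpnmb+. The cell source of Ccr7 RNA was not tested. Itgax made up most of the sum, at 80.2, 109 and 77.3 CPM across the DBA/2J pools, against 45.7 and 74.8 in Gpnmb+. This side was not particular to dendritic cell markers. Above 0 were also 6 of 6 pan-leukocyte, 9 of 10 macrophage and 5 of 5 tested neutrophil genes, beside 47.4% of all tested genes. Among mast cell genes 3 were higher and 5 lower, and all 8 tested B and plasma cell genes were lower. The part of these cells in the CD3 difference was not tested.

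Over the 5 pools, the genes whose centered log2 CPM lay closest to that of the summed CD3 chains among 19710 genes were Fbp2, with a root mean square difference of 0.027, 4933430I17Rik (0.053), Gm28439 (0.059), Col20a1 (0.063) and Gm14023 (0.065). Fbp2 had 10 to 20 counts per pool and Gm28439 had 9 to 17, so both are sparse. Ranks of other genes were looked up after the values had been seen. The constant regions of the receptor were spread over a wide range, with Trdc at rank 12, Trgc1 at 46, Trbc2 at 101, Trgc2 at 1145, Trbc1 at 5689, Trgc4 at 6397 and Trac at 10800. Il7r ranked 93, and Itgax, the only dendritic cell marker looked up, ranked 104. The macrophage marker Lyz2 ranked 759 and the pan-leukocyte gene Ptprc 14968. Of the listed genes, Cd4 ranked 1800 and Gzma 18403.

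Both coreceptor genes lie on chromosome 6 with Gpnmb, Cd4 (124841655 to 124874758) at 75.8 Mb and Cd8a (71350411 to 71356157) at 22.3 Mb from it. Cd4 had 713, 1150 and 650 counts across the DBA/2J pools, against 548 and 1082 in Gpnmb+. The high pools were pool 2 of each genotype, and the groups overlapped almost entirely. In CPM the pools were at 16.0, 26.8 and 14.6, against 10.8 and 22.1, and the log2 fold change of Cd4 was 0.22 (SE 0.382, Benjamini-Hochberg adjusted p = 0.828 in edgeR). Its sign depended on single pools, at -0.10 without DBA/2J pool 2 and -0.21 without Gpnmb+ pool 1.

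Cd4 was well above the CD3 chains per length, at 7.53, 7.40 and 5.18 times Cd3e in DBA/2J pools 1 to 3 and 6.30 and 11.2 times in Gpnmb+ pools 1 and 2. In mice, CD4 is also made by some dendritic cells and macrophages. The summed level of 10 macrophage markers was 3249, 4345 and 3476 CPM across the DBA/2J pools, against 3074 and 3908 in Gpnmb+, highest in pool 2 of each genotype as Cd4 was. That order rests on Lyz2, the lysozyme gene of myeloid cells. The 9 other markers summed to 1184, 1143 and 878 CPM against 948 and 793, highest in pool 1 of each genotype. The part of these cells in the Cd4 counts was not tested.

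Cd8a was low in every pool, with 19, 33 and 13 counts across the DBA/2J pools, against 50 and 41 in Gpnmb+. All DBA/2J pools lay below both Gpnmb+ pools, at 0.496 ± 0.246 CPM (SD, n = 3) against 0.912 ± 0.104 CPM (n = 2). The exact 95% Poisson intervals, which cover counting error only, were 22.7 to 46.3 counts for DBA/2J pool 2 and 29.4 to 55.6 for Gpnmb+ pool 2, and overlapped. The log2 fold change was -0.88 (SE 0.446, Benjamini-Hochberg adjusted p = 0.399 in edgeR), with a 95% interval from -1.97 to 0.21. Cd8b1, which encodes the partner chain of CD8, had 8, 20 and 5 counts across the DBA/2J pools, against 32 and 17 in Gpnmb+, so that the groups overlapped. Per length, Cd4 exceeded Cd8a 30.4, 28.2 and 40.4 times in DBA/2J pools 1 to 3 and 8.87 and 21.3 times in Gpnmb+ pools 1 and 2. These ratios did not overlap between the genotypes, as Cd8a itself did not, while Cd4 did. They rest on 13 to 50 Cd8a counts. Of all tested genes, 34.5% had pools that did not overlap, in either direction. A shift between T cell classes was not tested.

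Foxp3 (chromosome X, 7439883 to 7461484) had 48, 39 and 39 counts across the DBA/2J pools, against 32 and 26 in Gpnmb+. All DBA/2J pools were above both Gpnmb+ pools, and the spread within each genotype was small, at 0.954 ± 0.110 CPM (SD, n = 3) and 0.581 ± 0.0701 CPM (n = 2). The log2 fold change was 0.71 (SE 0.286, 95% interval 0.01 to 1.41), with an unadjusted p of 0.0462 and a Benjamini-Hochberg adjusted p of 0.303 in edgeR. The Foxp3 counts are uncertain, since its exons overlap those of Ccdc22 by 590 bases and of Ppp1r3f by 266 on the opposite strand and of the noncoding gene Flicr by 853 on the same strand, and the strand setting of the counting is not stated. No other listed gene overlapped a counted gene except Cd3e, which shared 135 bases with Gm48719, a gene with at most 1 count in any pool.

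The promoters of the granule genes are shown because they shared letters that the other listed windows lacked. RefSeq promoter windows were found for 9 of the 10 genes (10 windows, Foxp3 having 2 and Cd4 none), and their 250 bases upstream of the RefSeq start each matched GRCm39 at a single position. That start can differ from the gene positions given here, which are from GENCODE. The Prf1 and Nkg7 windows run past the GENCODE starts (61133546 and 43086497), and both Foxp3 windows lie within the GENCODE gene. The core of the motif bound by RUNX factors, TGTGGT or its reverse complement ACCACA, was in the windows of Gzma, Gzmb, Prf1 and Nkg7 and in no other listed window, and 14.0% of 32817 promoter windows of the same length held it. The ETS core AGGAAG or CTTCCT was in 5 of the 10 windows, those of Cd3d, Cd3e, Prf1, Nkg7 and 1 of Foxp3, against 29.5% of all windows. The E-box CAGCTG was in 2 windows, of Foxp3 and Prf1, against 13.0%, and the TATA box TATAAA was in 1 of Foxp3, against 12.4%. A match describes the letters and is not evidence of binding. The 4 granule windows follow, 5′ to 3′ on the strand of the gene, at chr13:113237516-113237765 (minus, Gzma), chr14:56499792-56500041 (minus, Gzmb), chr10:61133365-61133614 (plus, Prf1) and chr7:43086312-43086561 (plus, Nkg7), all GRCm39, with capitals marking RUNX and ETS core matches, none of which overlap each other.
Gzma promoter: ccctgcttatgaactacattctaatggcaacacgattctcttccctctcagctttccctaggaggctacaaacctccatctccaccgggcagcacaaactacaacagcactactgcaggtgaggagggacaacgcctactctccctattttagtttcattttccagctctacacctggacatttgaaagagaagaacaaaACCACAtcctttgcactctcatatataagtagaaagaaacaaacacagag
Gzmb promoter: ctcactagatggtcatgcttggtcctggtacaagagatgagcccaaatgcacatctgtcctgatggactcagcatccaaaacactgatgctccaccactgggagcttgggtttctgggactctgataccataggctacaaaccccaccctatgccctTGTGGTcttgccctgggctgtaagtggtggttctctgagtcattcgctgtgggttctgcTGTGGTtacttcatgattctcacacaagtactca
Prf1 promoter: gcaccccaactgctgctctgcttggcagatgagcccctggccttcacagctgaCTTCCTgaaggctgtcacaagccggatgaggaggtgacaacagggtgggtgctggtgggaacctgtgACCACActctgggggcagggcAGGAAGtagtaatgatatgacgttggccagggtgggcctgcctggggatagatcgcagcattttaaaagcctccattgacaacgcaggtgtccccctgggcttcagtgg
Nkg7 promoter: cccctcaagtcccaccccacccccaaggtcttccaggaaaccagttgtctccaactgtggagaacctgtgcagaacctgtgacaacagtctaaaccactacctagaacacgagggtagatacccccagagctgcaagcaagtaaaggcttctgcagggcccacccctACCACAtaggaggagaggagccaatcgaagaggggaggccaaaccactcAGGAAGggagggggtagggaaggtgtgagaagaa

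Gzma, which encodes the tryptase granzyme A, gave the largest difference among the 10 genes. It had 45, 38 and 45 counts across the DBA/2J pools, against 130 and 82 in Gpnmb+. The DBA/2J pools were close to each other and all below both Gpnmb+ pools, of which pool 1 was the higher. In CPM this was 0.969 ± 0.0723 (SD, n = 3) against 2.12 ± 0.626 (n = 2), or 2.18-fold higher in Gpnmb+. The log2 fold change was -1.13 (SE 0.275, 95% interval -1.80 to -0.46), with an unadjusted p of 0.00607 and a Benjamini-Hochberg adjusted p of 0.135 in edgeR, so that Gzma was not called. DESeq2's Wald test gave an adjusted p of 0.0408, and limma-voom gave 0.142. With each pool left out in turn, the log2 fold change ran from -1.40 without Gpnmb+ pool 2 to -0.79 without Gpnmb+ pool 1.

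Gzmb, Prf1 and Nkg7 did not share this pattern. Gzmb, the aspartate-specific granzyme, had 22, 29 and 9 counts across the DBA/2J pools, against 34 and 9 in Gpnmb+. The lowest pools of both genotypes held the same count, and the groups overlapped, with a log2 fold change of 0.09 (SE 0.705). Prf1, which encodes perforin, had 25, 21 and 18 counts across the DBA/2J pools, against 34 and 19 in Gpnmb+. The Gpnmb+ pools enclosed the DBA/2J range after scaling, and the log2 fold change was -0.13 (SE 0.381). Nkg7, a granule membrane protein of killer cells, had 10, 22 and 12 counts across the DBA/2J pools, against 32 and 14 in Gpnmb+. DBA/2J pool 2 lay between the Gpnmb+ pools, and the log2 fold change was -0.45 (SE 0.545).

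In edgeR the Benjamini-Hochberg adjusted p-values of Gzmb, Prf1 and Nkg7 were 0.963, 0.904 and 0.737. Their 95% intervals reached from -1.63 to 1.81 on the log2 scale for Gzmb, from -1.06 to 0.80 for Prf1 and from -1.78 to 0.88 for Nkg7, and those of Gzmb and Nkg7 take in the -1.13 of Gzma. All 4 granule genes were higher in Gpnmb+ pool 1 than in Gpnmb+ pool 2, by 1.53 times in CPM for Gzma, 3.64 for Gzmb, 1.72 for Prf1 and 2.20 for Nkg7. This order was not particular to them, since Cd3d (1.55 times), Cd8a (1.18) and Foxp3 (1.19) were also higher in Gpnmb+ pool 1. Cd4, Cd3g and Cd3e were ordered the other way. Summed over the 4 genes, the level was 2.29, 2.56 and 1.88 CPM across the DBA/2J pools, against 4.53 and 2.54 in Gpnmb+. Gpnmb+ pool 2 thus lay within the DBA/2J range. The ratio of Gzma to Gzmb counts was 2.05, 1.31 and 5.00 across the DBA/2J pools, against 3.82 and 9.11 in Gpnmb+, in which the highest values rest on 9 Gzmb counts.

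**Figure D3:**
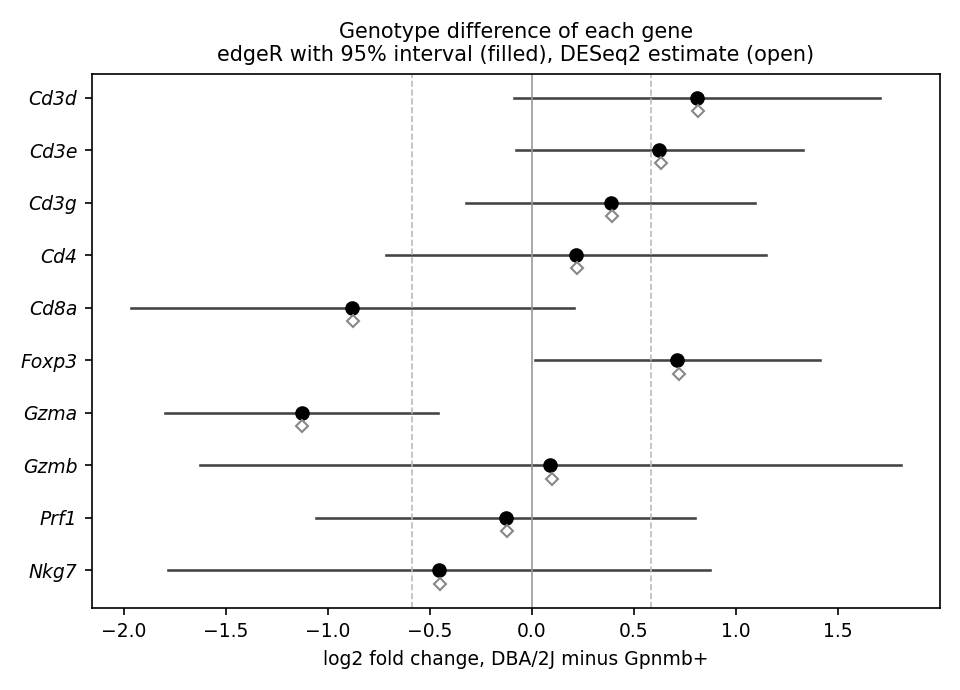
Log2 fold change (DBA/2J minus Gpnmb+) of the 10 genes from edgeR with 95% intervals (filled points and lines) and from DESeq2 (open points); dashed lines mark a 1.5-fold difference. The intervals of Gzma (-1.80 to -0.46) and Foxp3 (0.01 to 1.41) leave out 0 before adjustment, and that of Gzmb is the widest.

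Other leukocyte RNA differed between pools along with these genes. The B and plasma cell list was lower in DBA/2J, as Gzma and Cd8a were, at 45.4, 44.9 and 84.0 summed CPM in pools 1 to 3 against 143 and 124 CPM in Gpnmb+ pools 1 and 2. All 8 of its tested genes had a log2 fold change below 0, with a median of -1.09 and 6 with separated pools, where 17.2% of all tested genes were separated in this direction. EdgeR called 0, against 6 at an unadjusted p of at most 0.05 (4.48% of all genes) and 2 by DESeq2 (1.94%). Neutrophil RNA stood apart in DBA/2J pool 1 and Gpnmb+ pool 1, at 235 and 103 summed CPM, against 19.6 to 38.1 in the other pools, and Gpnmb+ pool 1 was also the highest pool for Gzma, Prf1 and Nkg7. Ptprc, which encodes the leukocyte antigen CD45, had 4505, 3204 and 2767 counts across the DBA/2J pools, against 4366 and 2270 in Gpnmb+, highest in pool 1 of each genotype. The pan-leukocyte sum was 544, 493 and 403 CPM against 438 and 334, the mast cell sum ran from 231 to 291 and the erythroid sum reached 170 in Gpnmb+ pool 2, and all of these overlapped between the genotypes. The part of these cells in the results for the granule genes and Cd8a was not tested.

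**Figure D4:**
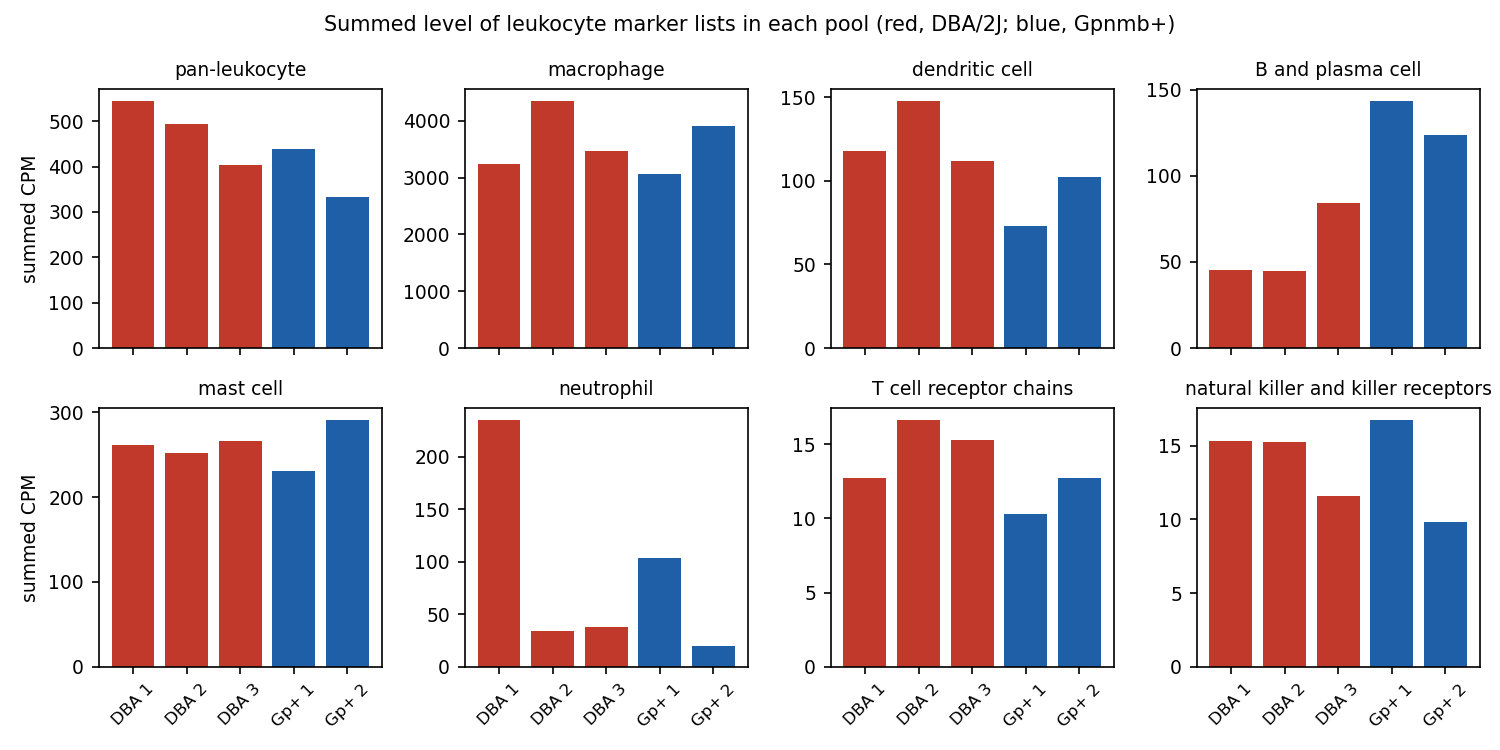
Summed CPM of 6 leukocyte marker lists and 2 lymphocyte lists in each pool (bars from 0, a scale for each list). The B and plasma cell sum was at most 84.0 in the DBA/2J pools (red) and at least 124 in the Gpnmb+ pools (blue), and the neutrophil sum was highest in pool 1 of each genotype.

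The pathway around these genes was followed in 6 lists with 81 further genes, of which 73 were tested. By sign 43 were higher and 30 lower in DBA/2J, and the median log2 fold change was 0.16. Only Serpinb9 was called by edgeR. DESeq2 called Serpinb9, Pdcd1 and Lag3, limma-voom called 1, Serpinb9, and 7 passed in edgeR at an unadjusted p of at most 0.05 and the same fold (Serpinb9, Pdcd1, Lag3 and Runx3 higher, and Gzmm, Klre1 and Themis lower in DBA/2J). Over all tested genes the shares called were 0.796% for edgeR, 4.70% for DESeq2 and 8.67% at an unadjusted p, not far from these shares of 73. In the lists that follow, called means called by edgeR.

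Among 8 receptor chain genes, 6 were higher and 2 lower, with a median of 0.31 and 0 called, or 0 at an unadjusted p and 0 by DESeq2. Trdc, the constant region of the delta chain, had 191, 276 and 217 counts across the DBA/2J pools, against 140 and 197 in Gpnmb+. Its groups were separated after scaling, at 5.20 ± 1.10 CPM (SD, n = 3) against 3.39 ± 0.897 CPM (n = 2), with a log2 fold change of 0.61 (SE 0.265, Benjamini-Hochberg adjusted p = 0.336 in edgeR). Trbc2, a beta constant region, was separated too, with 55, 63 and 52 counts against 41 and 44. Trac, the alpha constant region, had 126, 116 and 165 counts across the DBA/2J pools, against 154 and 101 in Gpnmb+ and overlapped. The gamma constant region Trgc1 overlapped as well, with 72, 112 and 89 counts against 54 and 89. By counts Trdc was above Trac in every pool except Gpnmb+ pool 1. Per kilobase of exon it was below Trac in every pool. That ratio of Trdc to Trac was 0.367, 0.576 and 0.318 across the DBA/2J pools, against 0.220 and 0.472 in Gpnmb+. The order thus rests on the exon lengths, 3865 bases for Trdc and 935 for Trac, each taken over all annotated exons. Delta and alpha chains mark separate T cell lineages, and the listed CD3 genes are used by both. Reads of Trbc1 and Trbc2, and of the gamma constant regions, may be split or lost between close copies, since only uniquely aligned reads were counted.

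The 13 tested receptor signalling genes were split 7 to 6, with a median of 0.07 and 0 called, or 1 at an unadjusted p (Themis) and 0 by DESeq2. Lat, the adaptor that links the receptor to downstream signalling, had 66, 88 and 85 counts across the DBA/2J pools, against 52 and 67 in Gpnmb+ and was separated. Themis, a protein of thymocyte selection, had 11, 9 and 5 counts against 29 and 19, below both Gpnmb+ pools, at a log2 fold change of -1.33 (SE 0.466, Benjamini-Hochberg adjusted p = 0.253 in edgeR). Ptpn22, a phosphatase that restrains the receptor, had 313, 317 and 259 counts against 515 and 379. Sh2d1a had 14, 15 and 12 counts against 15 and 44, where Gpnmb+ pool 2 stood apart. The kinase Fyn (1260 to 1607 counts) and the adaptor Lcp2 (514 to 1022 counts) were the most abundant of the list with Ptpn22 and overlapped between genotypes; both are made by cells other than T cells.

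Surface receptors were 9 higher and 6 lower among 15 tested, with the highest median of the 6 lists, 0.40, and 0 called, or 2 at an unadjusted p and 2 by DESeq2 (both times Pdcd1 and Lag3). Pdcd1, which encodes the inhibitory receptor PD-1, had 89, 54 and 81 counts across the DBA/2J pools, against 16 and 40 in Gpnmb+. All DBA/2J pools were above both Gpnmb+ pools, at a log2 fold change of 1.58 (SE 0.469). Lag3, another inhibitory receptor and a relative of CD4, had 195, 173 and 187 counts against 141 and 123. Its pools were tight within each genotype, at a log2 fold change of 0.67 (SE 0.174). The Benjamini-Hochberg adjusted p-values of Pdcd1 and Lag3 were 0.192 and 0.152 in edgeR, and 0.0450 and 0.0287 by DESeq2. Tnfrsf18, the receptor GITR of regulatory and activated T cells, had 181, 90 and 85 counts against 84 and 35, which separated the groups, before scaling by a single read. Il7r, the interleukin-7 receptor and the most abundant gene of the list, had 1494 to 2736 counts and overlapped between genotypes. Its level of 10.3 CPM per kilobase compares with 0.545 for Cd3e, and the cell source of Il7r RNA was not tested.

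Transcription factors were split 5 to 5, with a median of 0.08 and 0 called, or 1 at an unadjusted p (Runx3) and 0 by DESeq2. Runx3, which encodes a RUNX factor of killer T cells, had 412, 296 and 366 counts across the DBA/2J pools, against 313 and 227 in Gpnmb+. Its groups were separated after scaling, with DBA/2J higher at a log2 fold change of 0.59 (SE 0.205, Benjamini-Hochberg adjusted p = 0.253 in edgeR). The cell source of this RNA was not tested, and no binding to the windows shown above was measured. Eomes, a factor of killer and memory cells, had 31, 16 and 5 counts against 31 and 38 and overlapped. Lef1 had 132, 187 and 276 counts against 153 and 126, and Tcf7 had 406 to 569. Ikzf2, which encodes Helios, had 3611, 3392 and 2338 counts against 5140 and 4104. The Ikzf2 groups were separated, with DBA/2J lower. Its level of 6.09 CPM per kilobase compares with 0.545 for Cd3e, and the cell source of this RNA was not tested.

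Of 14 tested genes of granule contents and release, 11 were higher and 3 lower in DBA/2J, with a median of 0.18. Serpinb9, which encodes an inhibitor of granzyme B that protects cells from it, was the gene called. It had 4411, 4144 and 4307 counts across the DBA/2J pools, against 3403 and 2992 in Gpnmb+, all DBA/2J pools being above both. It rose to 97.4 ± 1.54 CPM (SD, n = 3) in DBA/2J from 64.1 ± 4.17 CPM (n = 2) in Gpnmb+, at a log2 fold change of 0.60 (SE 0.0820, Benjamini-Hochberg adjusted p = 0.0453 in edgeR). With any 1 of the 5 pools left out, 0 genes of the lists were called, Serpinb9 included. Serpinb9 is also made by dendritic and other cells, and its level of 17.3 CPM per kilobase compares with 0.310 for Gzmb.

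Gzmm, another granzyme, had 22, 56 and 55 counts across the DBA/2J pools, against 103 and 166 in Gpnmb+. All DBA/2J pools were below both Gpnmb+ pools, as for Gzma, at a log2 fold change of -1.42 (SE 0.458, Benjamini-Hochberg adjusted p = 0.224 in edgeR). Gpnmb+ pool 2 was the higher for Gzmm and pool 1 for Gzma. Ctsc, the protease that activates granzymes, had 14986, 10524 and 11199 counts against 11710 and 8798. The granule proteoglycan gene Srgn had 1709 to 3980 counts and overlapped. Lamp1, a lysosomal membrane protein, and Rab27a, which guides granules and melanosomes to the membrane, had at least 8067 counts in every pool and belong to many cell types.

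Natural killer and killer receptor genes were 5 higher and 8 lower among 13 tested, with a median of -0.12 and 0 called, or 1 at an unadjusted p (Klre1) and 0 by DESeq2. Klre1 had 0, 1 and 1 counts across the DBA/2J pools, against 14 and 2 in Gpnmb+, and no fold is given at this depth. Klrg1, an inhibitory receptor of mature killer cells, had 11, 5 and 5 counts against 17 and 15. Fasl, the death ligand of killer cells, had 3, 5 and 5 counts against 6 and 13. The chemokine Ccl5 had 71 to 130 counts, the interleukin-2 receptor chain Il2rb had 106 to 219 and the chemokine Xcl1 had 10 to 27, and all 3 overlapped between the genotypes. In CPM too, Gpnmb+ pool 1 was the highest for Ccl5, Il2rb and Xcl1, as it was for Gzma, Prf1 and Nkg7. Its lead over DBA/2J pool 2 was small for Il2rb (4.32 against 4.17 CPM) and Xcl1 (0.532 against 0.513 CPM). Klrg1 and Klre1 were also highest there. The list as a whole did not share this order, since Fasl was highest in Gpnmb+ pool 2 and some other genes in a DBA/2J pool.

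**Figure D5:**
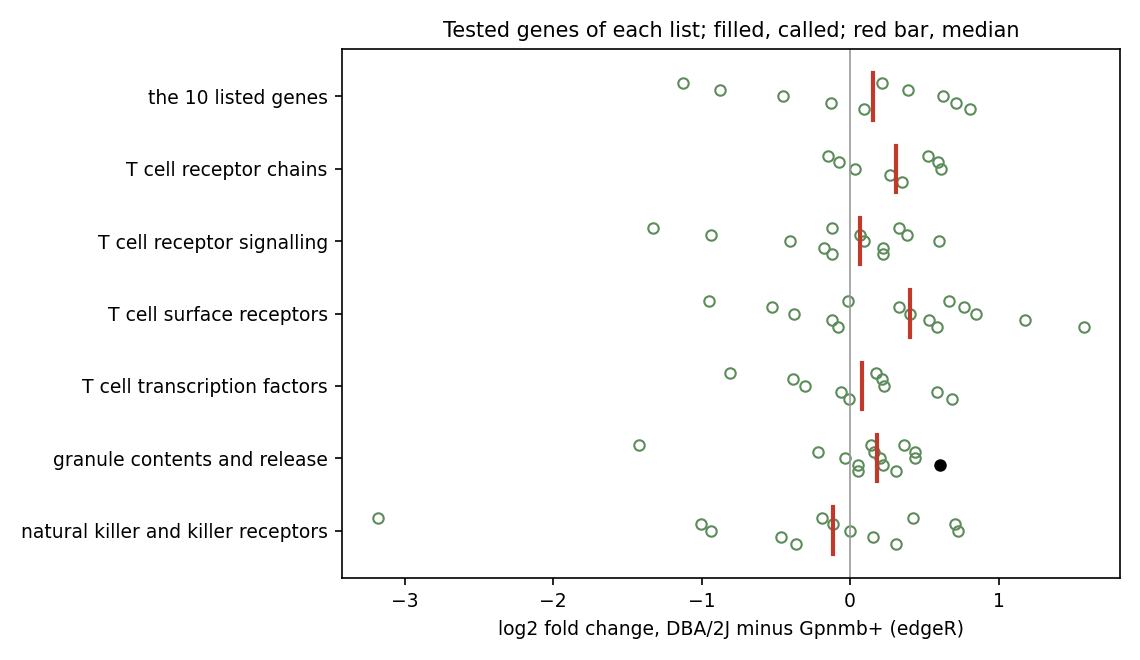
Log2 fold change (DBA/2J minus Gpnmb+, edgeR) of the 10 listed genes and of the tested genes of 6 pathway lists; each circle is a gene, the filled circle is Serpinb9, the one gene called, and red bars are medians. Medians run from -0.12 to 0.40, and the leftmost point is Klre1, with at most 1 count in the DBA/2J pools.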

How the data were processed

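The 5 pools were sequenced as poly(A)-selected mRNA. Paired reads were trimmed (fastp) and mapped to GRCm39 (STAR), and the authors deposited a table of raw counts, in which each gene has the number of its uniquely mapped reads in a pool. Strand use in counting is not given in the sources used here. Every column of the table matched 1 sample, and no 2 were identical.

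Symbols, positions and exon lengths came from GENCODE M39, which held 56323 of 56941 identifiers. An exon length is the union of all annotated exons of a gene. All 159 genes of the lists matched, 4 through older symbols. R 4.3.3 with edgeR 4.0.16 fitted genotype alone to TMM-scaled counts of genes with at least 10 counts in 1 pool, and the fit was tested on simulated data. Calls needed a Benjamini-Hochberg adjusted p of at most 0.05 and a fold of 1.5. Standard errors were taken from the quasi-likelihood F statistic. An exact permutation test of 3 pools against 2 cannot go below p = 0.2, so none is given.

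The 10 genes and the 6 pathway and 9 marker lists were chosen with earlier results of these data known. Named pathway genes are those called and, in each list, the 3 with the largest log2 fold change in size and the 3 highest per kilobase. Ptprc, Ddx3y, Xist, Cnmd, Lyz2, Itgax, Ccr7 and the ranks in likeness beyond the top 5 were singled out otherwise. Results for some genes named by this rule are not given. Promoter sequences came from RefSeq (GRCm38.p6 table), placed on GRCm39 by exact match. Alternatives were DESeq2 1.42.0, limma-voom 3.58.1, other scalings, filters and thresholds, a replicate block, and each pool left out. Counting intervals are exact Poisson intervals and cover counting error only.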

Additional observations from a re-analysis of the deposited data

How the results depend on the processing

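Of 110 recomputed log2 fold changes of the 10 genes, 102 kept their direction and their side of the threshold. Gzma moved past the threshold with DESeq2 (adjusted p = 0.0408; 0.0408 to 0.291 over its alternatives), and 7 changed sign: Cd4 was -0.10 without DBA/2J pool 2 and -0.21 without Gpnmb+ pool 1, Gzmb was -0.30 without DBA/2J pool 2 and -0.55 without Gpnmb+ pool 2, Nkg7 was 0.22 and Prf1 0.32 without Gpnmb+ pool 1, and Prf1 was 0.020 with the replicate block. Leaving out each pool gave ranges of -0.21 to 0.83 for Cd4, -0.55 to 1.30 for Gzmb, -0.91 to 0.22 for Nkg7 and -0.46 to 0.32 for Prf1. The cause was not tested. The 10 genes gave 0 calls in edgeR, 2 at unadjusted p-values, 1 with DESeq2 and 0 under each other alternative. The pathway lists gave 1 call, 7 at unadjusted p-values, 3 with DESeq2, 0 with the replicate block and 0 with any pool left out. All genes gave 157 calls, 1710 at unadjusted p-values, 927 with DESeq2, 360 without the count filter and 1 to 217 with a pool left out (6, 1 and 17 without DBA/2J pools 1 to 3, 217 and 2 without Gpnmb+ pools 1 and 2). Without a Gpnmb+ pool, the lone library is assumed to vary like the others.

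The labels give pool numbers but no shared batch, so the samples share only a number. Deviations from the group means correlated across genes at 0.279 for the pools numbered 1 and 0.254 for those numbered 2, and the block gave 220 calls over all genes. With 2 Gpnmb+ pools, the deviations of 1 mirror those of the other. Each correlation therefore recurs with the opposite sign for the other Gpnmb+ pool, and the 2 values are not independent. Depth limits Cd8a, Foxp3, Gzmb, Nkg7 and Prf1, which had 9 to 50 counts per pool.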
